A study of Mus musculus with 25 samples.

Results

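The comparison described here set the cortical transcriptome of 5xFAD mice given vehicle (AD_Veh, 5 mice) against that of wild-type mice given vehicle (WT_Veh, 5 mice). It covered every gene with at least 0.5 FPKM in at least 5 of these 10 libraries, which was 14968 of the 54532 genes in the deposited table. FPKM are fragments per kilobase of gene, scaled to the fragments of the library. The whole series holds 25 brain cortex libraries in 5 groups of 5 mice, the other groups being wild-type or 5xFAD mice given a natural product derivative called P. The 5xFAD line carries mutant human transgenes, that for amyloid precursor protein among them, which are driven by Thy1 sequences and so active in neurons, and it deposits amyloid. Neither group compared here received P, and both received vehicle. The age, strain background and duration of dosing were not given in the sources used here, and the mice of a group were separate animals per the series design.

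Amyloid plaques are surrounded by microglia, the phagocytes of the brain, and by reactive astrocytes. Around plaques, microglia take up debris, digest it in lysosomes and pass on its cholesterol, and they signal through surface receptors coupled to tyrosine kinases. Neurons near plaques can lose synapses and carry swollen axons, and cortical neurons transcribe immediate early genes when they fire. The usual markers of the glial response are well known from this model. The account below therefore turns to the other genes and functions, and 8 lists of usual glial markers served only to set those markers apart.

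Reads assigned to genes ranged over the 10 libraries from 16029636 to 17282435, with a mean of 16270246 ± 196747 in AD_Veh and 16831424 ± 343298 in WT_Veh (SD, n = 5 each, two-sided exact permutation p = 0.0238, where the smallest possible p was 0.00794). By Xist and the Y-linked genes, mice 1 to 3 of each group were male and mice 4 and 5 female. Cortical markers were present in every library: the excitatory marker Slc17a7 lay between 173 and 271 FPKM in AD_Veh and between 124 and 278 FPKM in WT_Veh. The striatal receptor gene Drd2 lay between 14.1 and 39.1 FPKM in AD_Veh and between 11.03 and 97.8 FPKM in WT_Veh, so the samples also held striatal RNA in varying amounts, whose part in the results was not tested. Markers of T cells (Cd3e), B cells (Ms4a1), neutrophils (Ly6g) and monocytes (Ccr2) were at most 0.130 FPKM in all 10 libraries. Other markers of these cells were not: the T cell gene Trbc2 lay between 0 and 14.2 FPKM in AD_Veh and between 0.511 and 7.50 FPKM in WT_Veh, and the neutrophil genes S100a8 and S100a9 reached 1.67 and 2.69 FPKM in AD_Veh and 0.778 and 1.28 FPKM in WT_Veh. The part of such cells in the results was not tested. In bulk tissue, fewer cells of a type and less RNA per cell cannot be told apart, and this holds for every gene below.

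In AD_Veh, 450 genes were higher than in WT_Veh, which is 3.01% of the genes tested, and 41 were lower, which is 0.274% (limma on log2(FPKM + 0.5), Benjamini-Hochberg adjusted p under 0.05). Means below are given with the SD over the 5 mice of a group. Of the rises, 170 were at least 2-fold and 82 were under 1.5-fold on that scale. Of the falls, 7 were at least 2-fold and 25 were under 1.5-fold. The median log2 fold change was 0.86 among the genes that rose, -0.50 among those that fell and -0.02 over all tested genes, and the median standard error (SE) was 0.14. Only 78 of the 450 rises belonged to the lists of usual glial markers, and 372 did not. The counts given for lists below are to be read against the shares of 3.01% higher and 0.274% lower over all tested genes. Called genes of either direction were 3.28% of those tested. For 405 of these 491 genes the AD_Veh and WT_Veh mice did not overlap, against 4% of all tested genes. The median level of the risen genes in WT_Veh was 1.65 FPKM, that of the fallen genes 4.17 FPKM and that of all tested genes 5.02 FPKM. The plot of fold change against level shows both sets.

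**Figure D1:**
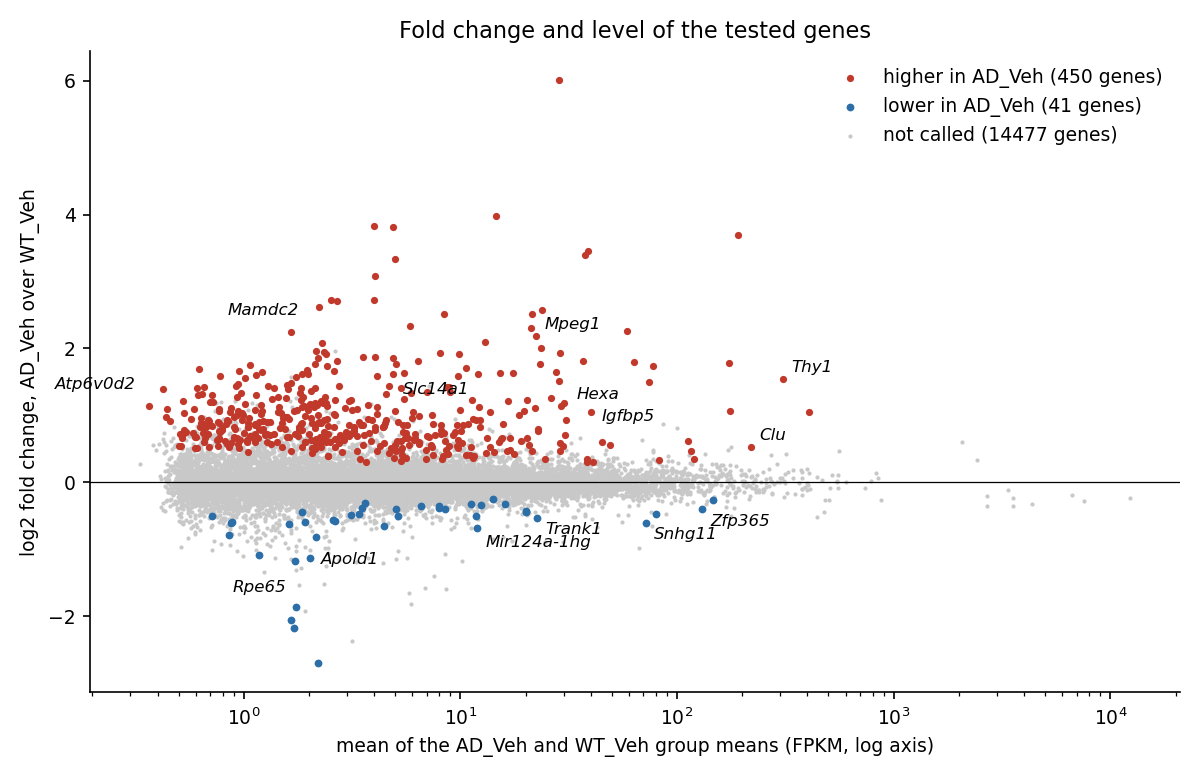
Log2 fold change of AD_Veh over WT_Veh (vertical axis) against the mean of both group means in FPKM (horizontal log axis) for the 14968 tested genes. Red points are the 450 genes higher in AD_Veh, blue points the 41 lower and grey points those not called. The rises reach a log2 of 6.01, while most falls lie between 0 and -1.

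The genotype labels were checked on Thy1 and on the mouse gene App. Thy1, the surface glycoprotein gene whose sequences drive the transgenes, measured 563, 397, 487, 479 and 366 FPKM in the 5 AD_Veh mice, against 176, 156, 165, 136 and 144 FPKM in the 5 WT_Veh mice. Every AD_Veh mouse lay far above every WT_Veh mouse (log2 fold change 1.55, SE 0.13, adjusted p = 1.68e-08). The mouse gene App averaged 139 ± 10.4 FPKM in AD_Veh and 145 ± 5.8 FPKM in WT_Veh (adjusted p = 0.8), and its groups overlapped.

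Among genes outside the glial lists that reached a mean of 1 FPKM in a group, the largest rise on the log2(FPKM + 0.5) scale was that of Mamdc2, a secreted proteoglycan. It measured 3.55, 3.85, 4.52, 6.48 and 2.56 FPKM in the 5 AD_Veh mice, against 0.485, 0.253, 0.3, 0.16 and 0.0545 FPKM in the 5 WT_Veh mice (log2 fold change 2.62, SE 0.23, adjusted p = 3.63e-08). Even the lowest AD_Veh mouse lay well above the highest WT_Veh mouse. All WT_Veh values were under 0.5 FPKM, so Mamdc2 passed the filter only through AD_Veh mice and its groups could not overlap. Mpeg1, a pore-forming protein of phagocytes, measured 32.9, 30.5, 43.2, 43.3 and 35.3 FPKM in the 5 AD_Veh mice, against 8.65, 9.78, 7.76, 6.52 and 6.05 FPKM in the 5 WT_Veh mice (log2 fold change 2.19, SE 0.15, adjusted p = 2.2e-10). Tent5c, a polymerase that lengthens the poly(A) tails of mRNAs, averaged 4.08 ± 1.11 FPKM in AD_Veh and 0.685 ± 0.0956 FPKM in WT_Veh (log2 fold change 1.92, SE 0.16, adjusted p = 1.19e-08). For both genes the groups lay apart, and the WT_Veh mice were close together.

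Several of the other large rises were surface receptors and secreted proteins. Lgals3bp, a secreted glycoprotein that binds galectins, averaged 21.5 ± 4.84 FPKM in AD_Veh and 4.62 ± 1.14 FPKM in WT_Veh (log2 2.10, adjusted p = 7.58e-07). Lag3, an inhibitory receptor for MHC class II molecules, averaged 15.8 ± 3.13 FPKM in AD_Veh and 3.8 ± 0.779 FPKM in WT_Veh (log2 1.92, adjusted p = 5.67e-08). Cd180 and Ly86 encode the 2 chains of one receptor complex that modulates Toll-like receptor signals, and they rose together: log2 1.85, adjusted p = 1.62e-07 and log2 1.85, adjusted p = 1.66e-08. Cd180 had 3.71 ± 0.641 FPKM in AD_Veh and 0.672 ± 0.227 FPKM in WT_Veh, and Ly86 had 7.9 ± 1.54 FPKM in AD_Veh and 1.86 ± 0.553 FPKM in WT_Veh. The Fc gamma receptors Fcgr2b (log2 1.96, adjusted p = 7.92e-10) and Fcgr3 (log2 1.70, adjusted p = 8.84e-11) bind antibody and are close in sequence, so reads may be shared among them and each level is uncertain. Ly9, a receptor of the SLAM family, averaged 1.92 ± 0.413 FPKM in AD_Veh and 0.225 ± 0.153 FPKM in WT_Veh (log2 1.75, adjusted p = 9.68e-08). Ly9 passed the filter only through the AD_Veh mice, so its groups could not overlap. The 15 largest rises by the naming rule also held Cyba, Plau, Capg, Laptm5 and Slc11a1, which are described with their groups, and in all 15 the groups did not overlap, as the rule required.

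Igfbp5 and Slc14a1 rose outside the phagocyte lists. Igfbp5, which binds insulin-like growth factors in the extracellular space, measured 52.4, 47.8, 61.8, 71.5 and 38.1 FPKM in the 5 AD_Veh mice, against 25.5, 25, 27.1, 25.3 and 24.6 FPKM in the 5 WT_Veh mice (log2 fold change 1.04, SE 0.14, adjusted p = 2.81e-05). The WT_Veh mice were close together, while the AD_Veh mice spread widely above them. Slc14a1, a urea transporter, measured 5.68, 7.31, 9.47, 8.12 and 7.46 FPKM in the 5 AD_Veh mice, against 2.73, 2.13, 2.26, 1.52 and 2.02 FPKM in the 5 WT_Veh mice (log2 fold change 1.62, SE 0.15, adjusted p = 5.87e-08). It was 1 of 10 solute carriers that rose among 252 tested (3.97%, against 3.01% of all tested genes; none fell), and the others included Slc15a3 (log2 1.60, adjusted p = 2.74e-07), a lysosomal transporter of histidine and small peptides, and Slc37a2 (log2 1.16, adjusted p = 2e-05), a sugar phosphate transporter. Igfbp5 and Slc14a1 did not overlap between groups. Slc15a3 passed the filter only through the AD_Veh mice, so its groups could not overlap.

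**Figure D2:**
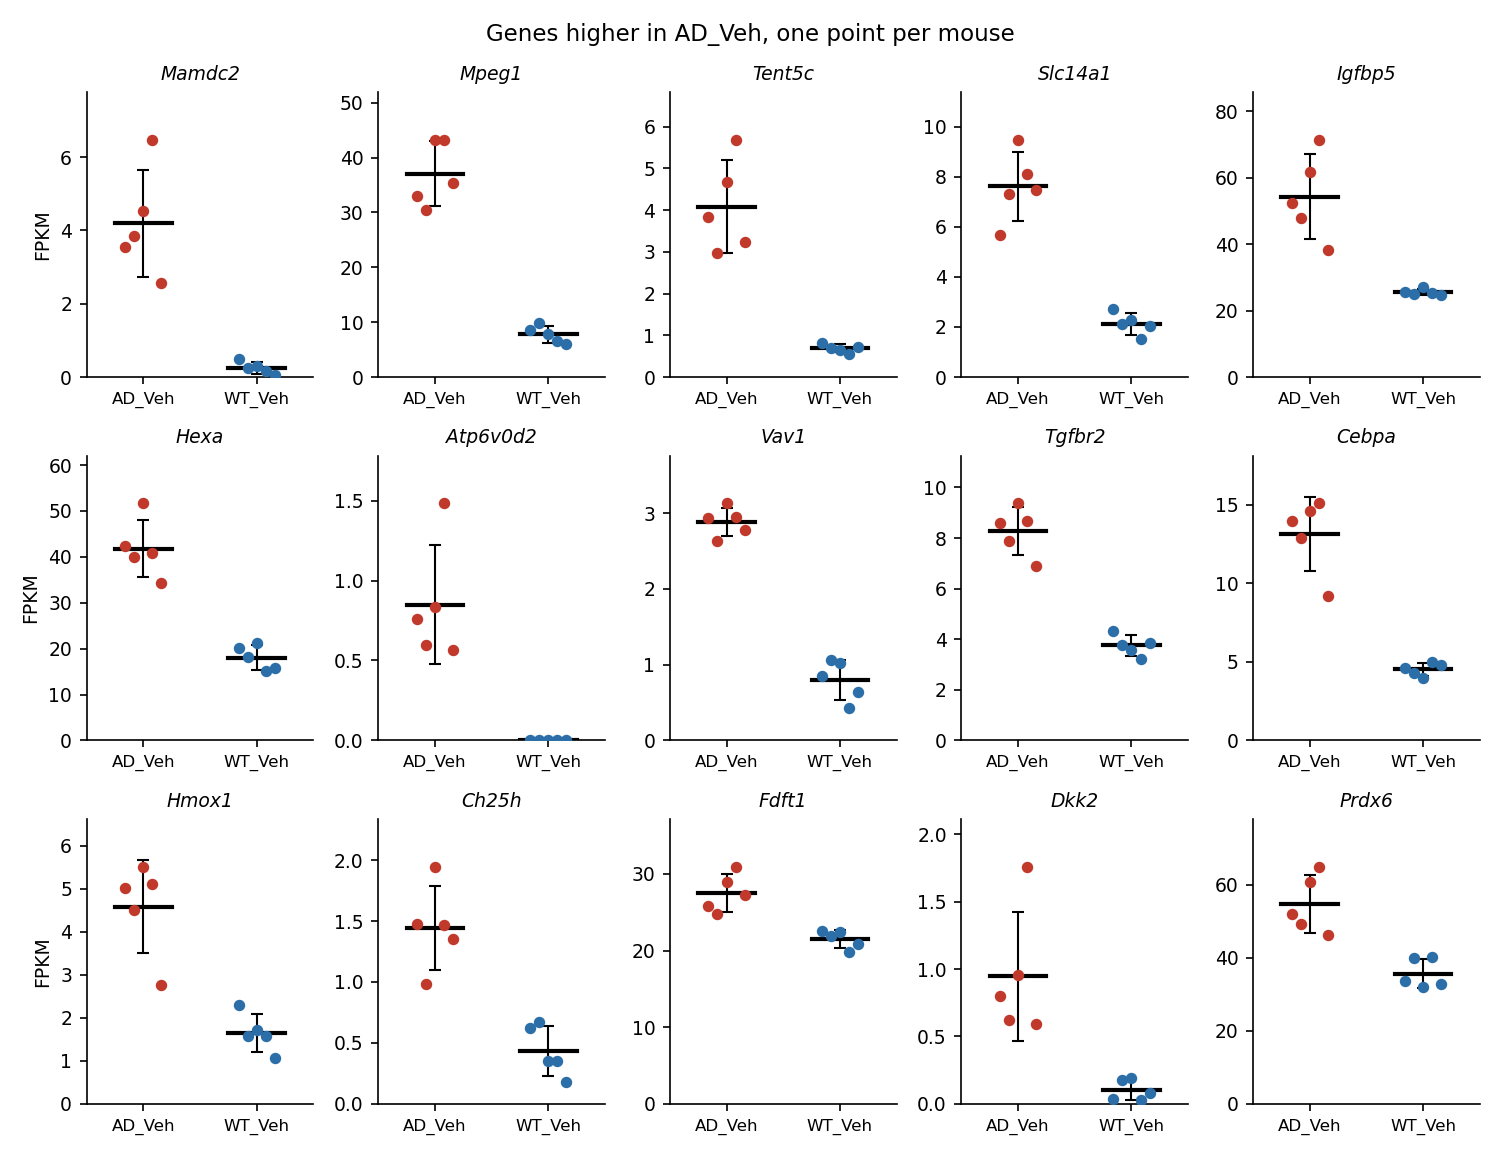
FPKM of 15 genes higher in AD_Veh, one point per mouse, with AD_Veh (red) left of WT_Veh (blue), the horizontal bar at the mean and the error bar at 1 SD (n = 5 each). All axes start at 0. In all 15 panels the AD_Veh mice lie above the WT_Veh mice, and Atp6v0d2 is at 0 in every WT_Veh mouse. Mamdc2, Atp6v0d2 and Dkk2 passed the filter only through AD_Veh mice, so their groups could not overlap.

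Many lysosomal enzymes rose, while the calls of the proton pump and autophagy lists lay near the share of all tested genes. Called higher were 39.5% of the hydrolases, 5.26% of the pump list and 0% of the autophagy list, against 3.01% of all tested genes. Of 43 tested lysosomal hydrolases and their cofactors, 17 were higher and none lower, with a median log2 fold change of 0.32 against -0.02 over all genes. Hexa, which encodes a subunit of an enzyme that trims gangliosides, measured 42.3, 39.9, 51.7, 40.8 and 34.3 FPKM in the 5 AD_Veh mice, against 20.1, 18.2, 21.1, 15 and 15.8 FPKM in the 5 WT_Veh mice (log2 fold change 1.19, SE 0.11, adjusted p = 9.82e-08), and the lowest AD_Veh mouse was above the highest WT_Veh mouse. Gm2a, the activator protein that presents gangliosides to this enzyme, averaged 16.2 ± 1.87 FPKM in AD_Veh and 11.2 ± 1.39 FPKM in WT_Veh (log2 0.52, adjusted p = 0.00848). Man2b1, an alpha-mannosidase, averaged 13.7 ± 1.41 FPKM in AD_Veh and 6.26 ± 0.668 FPKM in WT_Veh (log2 1.07, adjusted p = 2.34e-07), and Gusb, the beta-glucuronidase, averaged 7.99 ± 1.57 FPKM in AD_Veh and 2.7 ± 0.453 FPKM in WT_Veh (log2 1.40, adjusted p = 7.58e-07). Naglu (log2 0.86, adjusted p = 0.000118), which degrades heparan sulfate, and the protease Lgmn (log2 0.55, adjusted p = 5.21e-05) rose too.

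Of 34 lysosomal membrane proteins and transporters, 9 were higher and none lower (median 0.22). Laptm5, a lysosomal membrane protein of blood-derived cells, averaged 36.4 ± 6.3 FPKM in AD_Veh and 10.3 ± 1.75 FPKM in WT_Veh (log2 1.77, adjusted p = 5.49e-09), and Lamp1, a main glycoprotein of the lysosomal membrane, averaged 134 ± 11.8 FPKM in AD_Veh and 106 ± 6.62 FPKM in WT_Veh (log2 0.34, adjusted p = 0.00479). Lamp1 had adjusted p = 0.0664 when only the 10 vehicle libraries were fitted. Among 19 subunits of the vacuolar proton pump, which acidifies lysosomes, only Atp6v0d2 was higher and none was lower (median -0.02). Atp6v0d2 encodes an alternative subunit known from osteoclasts and macrophages, and it measured 0.757, 0.6, 0.833, 1.48 and 0.565 FPKM in the 5 AD_Veh mice, against 0 FPKM in the 5 WT_Veh mice. It had 187 reads in the AD_Veh libraries together and none in the WT_Veh libraries, so it was at least 64.5-fold higher, taking 3 reads over the WT_Veh group as the floor. It passed the filter only through the AD_Veh mice, so its groups could not overlap. Of 27 regulators of autophagy and lysosome formation, 0 were called (limma, adjusted p under 0.05), with a median of 0.03, and at an unadjusted p under 0.05 there were 0 higher and 1 lower. The autophagy adaptor Sqstm1 averaged 113 ± 11.3 FPKM in AD_Veh and 101 ± 6.47 FPKM in WT_Veh (adjusted p = 0.569).

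Proteins that act directly under immune receptors gave the largest share of rises among the function lists. Of 28 tested members, 19 were higher and none lower, with a median log2 fold change of 0.69. Vav1, an exchange factor that activates Rac, measured 2.94, 2.63, 3.13, 2.95 and 2.78 FPKM in the 5 AD_Veh mice, against 0.846, 1.06, 1.02, 0.433 and 0.641 FPKM in the 5 WT_Veh mice (log2 fold change 1.40, SE 0.14, adjusted p = 2.89e-07). Ptpn6, the phosphatase SHP-1 that inhibits these receptors, averaged 4.2 ± 0.912 FPKM in AD_Veh and 1.0 ± 0.349 FPKM in WT_Veh (log2 1.66, adjusted p = 1.16e-06). Inpp5d, the lipid phosphatase SHIP1 and a human Alzheimer disease risk gene, averaged 4.08 ± 0.285 FPKM in AD_Veh and 2.25 ± 0.26 FPKM in WT_Veh (log2 0.74, adjusted p = 2.62e-05). Plcg2, a phospholipase and also such a risk gene, averaged 2.4 ± 0.441 FPKM in AD_Veh and 1.19 ± 0.298 FPKM in WT_Veh (log2 0.79, adjusted p = 0.000634). Activating and inhibitory members thus both rose. The summed level of the list was 1.65 to 1.96 times the WT_Veh mean in AD_Veh mice, against 0.89 to 1.16 times in WT_Veh mice. Homeostatic microglia genes moved with it, at 1.67 to 1.96 times in AD_Veh mice and 0.87 to 1.15 times in WT_Veh mice, and their part in this result was not tested.

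The actin and phagocytic cup list gave 20 rises and no falls among 41 tested (median 0.56). It held Plek, the kinase substrate pleckstrin, with 14.9 ± 2.67 FPKM in AD_Veh and 4.62 ± 0.893 FPKM in WT_Veh (log2 1.59, adjusted p = 3.69e-07). Lcp1, the actin bundler L-plastin, averaged 3.0 ± 0.468 FPKM in AD_Veh and 1.05 ± 0.188 FPKM in WT_Veh (log2 1.18, adjusted p = 7.06e-07), and Myo1f, a membrane-bound myosin, averaged 2.56 ± 0.262 FPKM in AD_Veh and 0.618 ± 0.139 FPKM in WT_Veh (log2 1.46, adjusted p = 7.9e-07). Capg, which caps actin filaments, averaged 3.56 ± 0.638 FPKM in AD_Veh and 0.707 ± 0.276 FPKM in WT_Veh (log2 1.77, adjusted p = 1.06e-06). Cyba, a subunit of the phagocyte NADPH oxidase, averaged 13.1 ± 3.91 FPKM in AD_Veh and 3.02 ± 0.878 FPKM in WT_Veh (log2 1.94, adjusted p = 9.9e-08). Hvcn1, a proton channel that serves this oxidase, was the only one of 43 voltage-gated channel genes called, with 1.6 ± 0.197 FPKM in AD_Veh and 0.436 ± 0.114 FPKM in WT_Veh (log2 1.17, adjusted p = 3.27e-05). That is 2.33% of the channel list, against 3.01% of all tested genes.

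Among 33 haematopoietic and stress transcription factors, 11 were higher and none lower (median 0.32). Cebpa, a factor of the myeloid lineage, measured 14, 12.9, 14.6, 15.1 and 9.2 FPKM in the 5 AD_Veh mice, against 4.6, 4.26, 3.98, 4.96 and 4.81 FPKM in the 5 WT_Veh mice (log2 fold change 1.43, SE 0.15, adjusted p = 4.13e-07). The WT_Veh mice lay close together, and the lowest AD_Veh mouse, mouse 5, was well above them. Irf8, an interferon regulatory factor that myeloid cells need, averaged 2.82 ± 0.633 FPKM in AD_Veh and 0.807 ± 0.142 FPKM in WT_Veh (log2 1.33, adjusted p = 1.04e-05). Spi1, which encodes PU.1, the central factor of the macrophage lineage, averaged 3.16 ± 1.07 FPKM in AD_Veh and 1.11 ± 0.472 FPKM in WT_Veh (log2 1.18, adjusted p = 0.000528). Stat3, which carries cytokine signals to the nucleus, averaged 8.97 ± 0.721 FPKM in AD_Veh and 5.4 ± 0.511 FPKM in WT_Veh (log2 0.68, adjusted p = 1.13e-05). Over all 948 annotated transcription factors, 16 (1.69%) rose and 1 (0.105%), the zinc finger gene Zxdb, fell, against 3.1% and 0.285% of the other genes, a difference that was not tested. Zxdb lost its call without AD_Veh mouse 1, 2, 3 or 4 or without WT_Veh mouse 3, 4 or 5 (adjusted p between 0.0553 and 0.132).

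The PU.1 motif GAGGAAGT was looked for on both strands of RefSeq promoter windows (GRCm38.p6, 250 bases before to 50 after the start site). It was present in 34 of 341 risen genes with a window (9.97%) and in 354 of all 10612 tested genes with one (3.34%). In the immune receptor signalling list, 5 of 23 windows held it, all of genes that rose, and 15 of the 23 genes rose. It also stood in 3 of 26 windows of endothelial, 3 of 25 of proteasome and 2 of 20 of purinergic genes, none of which rose. The haematopoietic and stress transcription factors held it in 0 of 24 windows. The 5 stretches of the immune receptor list are shown so that the letters behind its count can be seen. Each is read along its gene's strand, capitals mark the motif, and a match is a description of the letters only.
Vav1, chr17:57279063-57279099, plus strand: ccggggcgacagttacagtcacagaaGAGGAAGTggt
Inpp5d, chr1:87620266-87620311, plus strand: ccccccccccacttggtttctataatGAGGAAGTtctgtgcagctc
Rasgrp3, chr17:75435829-75435888, plus strand: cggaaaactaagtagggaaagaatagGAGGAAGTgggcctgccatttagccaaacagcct
Pik3cg, chr12:32208628-32208687, minus strand: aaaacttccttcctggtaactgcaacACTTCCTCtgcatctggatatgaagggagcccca
Sh3bp2, chr5:34549372-34549431, plus strand: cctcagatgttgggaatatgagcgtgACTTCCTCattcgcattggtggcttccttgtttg
In Pik3cg and Sh3bp2 the motif stands as its reverse complement. The motif starts 11 bases before the start site in Vav1, 20 in Inpp5d, 50 in Rasgrp3, 191 in Pik3cg and 178 in Sh3bp2. Pik3cg encodes a phosphoinositide kinase (log2 0.64, adjusted p = 0.00475), Rasgrp3 an activator of Ras (log2 0.55, adjusted p = 0.0277) and Sh3bp2 an adaptor (log2 1.03, adjusted p = 0.00157). Rasgrp3 lost its call without AD_Veh mouse 1, 3 or 4 or without WT_Veh mouse 3, 4 or 5 (adjusted p between 0.0517 and 0.109). With only the 10 vehicle libraries fitted, Pik3cg had adjusted p = 0.0571.

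The core that TFEB binds, TCACGTGA, is its own reverse complement and was counted in the same windows. It stood in 4 of the 341 risen genes (1.17%) and in 2.14% of all windows. Of the lysosomal hydrolases, 2 of 35 windows held it, and Ctsa, a protective protease (29.1 ± 4.14 FPKM in AD_Veh and 16.8 ± 1.69 FPKM in WT_Veh, log2 0.77, adjusted p = 1.65e-05), was the one of them that rose. It also stood in 5 of 29 windows of lysosomal membrane genes and 3 of 13 of the pump, none of which rose. The stretch of Ctsa is shown for comparison with those above.
Ctsa, chr2:164833734-164833772, plus strand: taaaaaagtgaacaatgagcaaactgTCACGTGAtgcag

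Genes at several steps of cholesterol synthesis rose, each by a small amount. Of 25 tested members, 8 were higher and none lower, 24 had a positive log2 fold change, and the median was 0.34. The enzymes called stand at several steps: Acat2, which joins acetyl groups at the start, with 19.8 ± 1.71 FPKM in AD_Veh and 14.1 ± 1.56 FPKM in WT_Veh (log2 0.48, adjusted p = 0.00109), Mvk (log2 0.66, adjusted p = 0.0415) and Mvd (log2 0.78, adjusted p = 0.0181) of the mevalonate steps, and Fdft1, squalene synthase, with 27.6 ± 2.47 FPKM in AD_Veh and 21.5 ± 1.16 FPKM in WT_Veh (log2 0.35, adjusted p = 0.00388). Sqle, the epoxidase that follows it, measured 15.6, 13.7, 14.9, 15.9 and 15.3 FPKM in the 5 AD_Veh mice, against 11.7, 10.5, 14, 9.05 and 10.1 FPKM in the 5 WT_Veh mice (log2 fold change 0.44, SE 0.10, adjusted p = 0.00933), and WT_Veh mouse 3 lay within the AD_Veh range. Without WT_Veh mouse 4 the list had 5 called members, and it had 2 when only the 10 vehicle libraries were fitted, with adjusted p = 0.0528 for Fdft1 and 0.0679 for Sqle. Mvd lost its call without AD_Veh mouse 1 or 2 or without WT_Veh mouse 4 or 5 (adjusted p between 0.0552 and 0.0754). Mvk lost its call without AD_Veh mouse 1, 2, 3 or 4 or without WT_Veh mouse 4 or 5 (adjusted p between 0.0979 and 0.157). Fdft1 overlaps Ctsb, which also rose, and no source used here says whether strand was used in assigning reads, so its level is uncertain. The sterol response element TCACNCCAC, searched on both strands, stood in 1 of 18 promoter windows of this list, in 6 of the 341 risen genes with a window (1.76%) and in 1.4% of all tested genes with one.

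Oligodendrocytes make much of the brain's cholesterol, and their markers moved in the same direction without a call: all 18 tested oligodendrocyte and myelin genes had a positive log2 fold change (median 0.41), 0 were called by limma, and 3 were higher at an unadjusted p under 0.05. Their summed level was 0.89 to 1.70 times the WT_Veh mean in AD_Veh mice and 0.57 to 1.27 times in WT_Veh mice, and their part in the rise of the sterol genes was not tested.

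Genes that export, store and oxidise lipids rose in 7 of 34 cases, with none lower (median 0.20). Ch25h, which makes the oxysterol 25-hydroxycholesterol, measured 1.48, 0.983, 1.95, 1.47 and 1.35 FPKM in the 5 AD_Veh mice, against 0.622, 0.67, 0.349, 0.35 and 0.18 FPKM in the 5 WT_Veh mice (log2 fold change 1.07, SE 0.21, adjusted p = 0.00235). Abca1, the pump that loads cholesterol onto apolipoprotein E, averaged 8.82 ± 1.5 FPKM in AD_Veh and 5.95 ± 0.491 FPKM in WT_Veh (log2 0.52, adjusted p = 0.00782), and Plin2, a coat protein of lipid droplets, averaged 2.29 ± 0.401 FPKM in AD_Veh and 1.44 ± 0.233 FPKM in WT_Veh (log2 0.52, adjusted p = 0.0391). Clu, an apolipoprotein secreted by astrocytes, averaged 259.8 ± 15.7 FPKM in AD_Veh and 181 ± 28.3 FPKM in WT_Veh (log2 0.53, adjusted p = 0.00346). It was among the 10 genes with the largest difference in level by the naming rule. Npc2, which carries cholesterol inside lysosomes, averaged 14.2 ± 2.03 FPKM in AD_Veh and 7.47 ± 0.967 FPKM in WT_Veh (log2 0.88, adjusted p = 3.17e-06). In eicosanoid synthesis 2 of 19 genes were higher, Hpgds, the prostaglandin D synthase of haematopoietic cells (2.61 ± 0.397 FPKM in AD_Veh and 1.38 ± 0.185 FPKM in WT_Veh, log2 0.73, adjusted p = 0.000392), and Tbxas1, thromboxane synthase (0.777 ± 0.245 FPKM in AD_Veh and 0.266 ± 0.101 FPKM in WT_Veh, log2 0.73, adjusted p = 0.00627). Of 30 sphingolipid genes only Sgpl1, the lyase of sphingosine phosphate, was called (7.8 ± 1.3 FPKM in AD_Veh and 5.06 ± 0.446 FPKM in WT_Veh, log2 0.57, adjusted p = 0.000199). The 1 call among sphingolipid genes was 3.33% of that list, near the 3.01% of all tested genes. Without AD_Veh mouse 3 the export and storage list had 4 called members, and without AD_Veh mouse 1 eicosanoid synthesis had 4. Plin2 lost its call without AD_Veh mouse 2, 3 or 4 or without WT_Veh mouse 1, 2 or 5 (adjusted p between 0.063 and 0.13). Tbxas1 had adjusted p = 0.0541 when only the 10 vehicle libraries were fitted. It passed the filter only through the AD_Veh mice, so its groups could not overlap.

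Growth factor and cytokine genes rose in 11 of 36 cases and fell in none (median 0.25). Csf1, the growth factor of microglia, averaged 8.71 ± 1.75 FPKM in AD_Veh and 3.12 ± 0.332 FPKM in WT_Veh (log2 1.33, adjusted p = 3.76e-07). Igf1, an insulin-like growth factor, averaged 2.01 ± 0.34 FPKM in AD_Veh and 0.928 ± 0.152 FPKM in WT_Veh (log2 0.81, adjusted p = 0.00015). Tnfrsf1a, a receptor for tumour necrosis factor, averaged 8.75 ± 1.98 FPKM in AD_Veh and 4.09 ± 0.754 FPKM in WT_Veh (log2 0.99, adjusted p = 0.000104). Il6st, the shared receptor chain of the interleukin 6 family, averaged 12.2 ± 1.78 FPKM in AD_Veh and 9.03 ± 0.63 FPKM in WT_Veh (log2 0.40, adjusted p = 0.00629). Tgfb1 rose as a ligand (3.49 ± 0.681 FPKM in AD_Veh and 1.37 ± 0.653 FPKM in WT_Veh, log2 1.14, adjusted p = 0.000269) in company with its receptor chains Tgfbr2, which measured 8.58, 7.88, 9.38, 8.67 and 6.88 FPKM in the 5 AD_Veh mice, against 4.34, 3.78, 3.59, 3.21 and 3.85 FPKM in the 5 WT_Veh mice (log2 fold change 1.04, SE 0.09, adjusted p = 2.15e-08), and Tgfbr1 (10.7 ± 1.38 FPKM in AD_Veh and 6.2 ± 0.661 FPKM in WT_Veh, log2 0.73, adjusted p = 0.000316). Dkk2, a secreted Wnt antagonist, measured 0.8, 0.619, 0.957, 1.76 and 0.589 FPKM in the 5 AD_Veh mice, against 0.0324, 0.179, 0.191, 0.0319 and 0.0818 FPKM in the 5 WT_Veh mice (log2 fold change 1.22, SE 0.16, adjusted p = 1.62e-05), and another secreted Wnt antagonist, Sfrp1, averaged 3.19 ± 0.942 FPKM in AD_Veh and 1.73 ± 0.441 FPKM in WT_Veh (log2 0.71, adjusted p = 0.0433). Tgfbr1, Tgfbr2, Dkk2 and Sfrp1 belong to no function list and were chosen after their values were seen. Dkk2 passed the filter only through the AD_Veh mice, so its groups could not overlap. Sfrp1 lost its call without AD_Veh mouse 1, 2 or 3 or without WT_Veh mouse 1, 3 or 5 (adjusted p between 0.0617 and 0.164). With only the 10 vehicle libraries fitted, 7 of the 36 growth factor and cytokine genes were called, and Il6st had adjusted p = 0.0763.

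Of 38 proteases and inhibitors of the extracellular space 5 were higher (13.2%, against 3.01% of all tested genes) and none lower (median 0.21). Plau, the urokinase that activates plasminogen, measured 6.08, 5.53, 8.55, 7.19 and 2.39 FPKM in the 5 AD_Veh mice, against 1.12, 1.45, 0.722, 1.65 and 0.948 FPKM in the 5 WT_Veh mice (log2 fold change 1.88, SE 0.26, adjusted p = 2.58e-05), and its receptor Plaur averaged 0.737 ± 0.124 FPKM in AD_Veh and 0.137 ± 0.135 FPKM in WT_Veh (log2 0.98, adjusted p = 0.00213). Plaur passed the filter only through the AD_Veh mice, so its groups could not overlap. A2m, a broad inhibitor that traps proteases, averaged 1.61 ± 0.451 FPKM in AD_Veh and 0.265 ± 0.171 FPKM in WT_Veh (log2 1.47, adjusted p = 2.55e-05). Serping1, the inhibitor of the first complement component, averaged 3.67 ± 1.01 FPKM in AD_Veh and 1.56 ± 0.453 FPKM in WT_Veh (log2 1.01, adjusted p = 0.0173), and without AD_Veh mouse 4 its adjusted p was 0.0683, without WT_Veh mouse 4 it was 0.0529 and without WT_Veh mouse 5 it was 0.0565. Of 49 matrix genes 1 rose (Olfml3, a secreted matrix protein also listed for microglia) and 1 fell (Gpc5, a glypican of the cell surface, 7.22 ± 1.04 FPKM in AD_Veh and 9.69 ± 0.864 FPKM in WT_Veh, log2 -0.41, adjusted p = 0.0444), and 0 of 17 collagens were called by limma (2 higher and 0 lower at an unadjusted p under 0.05). For the matrix list this is 2.04% higher and 2.04% lower, against 3.01% and 0.274% of all tested genes. Without WT_Veh mouse 5 or AD_Veh mouse 4, the protease list had 3 called members. Gpc5 lost its call without AD_Veh mouse 1, 2, 3 or 4 or without WT_Veh mouse 1, 2, 3 or 4 (adjusted p between 0.0565 and 0.142).

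Among iron, oxidant and sugar genes few members were called, though more had a low unadjusted p. Called higher were 10.3% of iron and haem, 11.1% of oxidant defence and 8.82% of glycolysis genes, against 3.01% of all tested genes. At an unadjusted limma p under 0.05, 10 of 29 iron and haem genes were higher and 2 lower. At that limit 12 of 34 glycolysis genes were higher and 0 lower, and 5 of 36 oxidant defence genes higher and 1 lower. Of all 14968 tested genes, 1099 were higher and 670 lower. Hmox1, the heme oxygenase that frees iron from haem, measured 5.01, 4.51, 5.52, 5.11 and 2.76 FPKM in the 5 AD_Veh mice, against 2.3, 1.58, 1.72, 1.59 and 1.07 FPKM in the 5 WT_Veh mice (log2 fold change 1.23, SE 0.18, adjusted p = 5.27e-05). Slc11a1, which moves metal ions out of the phagosome, averaged 4.03 ± 1.08 FPKM in AD_Veh and 0.835 ± 0.149 FPKM in WT_Veh (log2 1.74, adjusted p = 4.34e-08), while Heph, a ferroxidase that helps iron leave cells, was lower, with 0.603 ± 0.139 FPKM in AD_Veh and 1.17 ± 0.234 FPKM in WT_Veh (log2 -0.59, adjusted p = 0.028). In all, 3 of 29 iron and haem genes rose and 1 fell. The haemoglobin gene Hba-a1, from red blood cells, lay between 1.45 and 17.6 FPKM in AD_Veh and between 0.669 and 5.52 FPKM in WT_Veh, and its part in these values was not tested. Prdx6, a peroxiredoxin, averaged 54.7 ± 7.96 FPKM in AD_Veh and 35.7 ± 4.07 FPKM in WT_Veh (log2 0.60, adjusted p = 0.000835), Ucp2, a carrier of the inner mitochondrial membrane, averaged 5.85 ± 1.13 FPKM in AD_Veh and 2.39 ± 0.375 FPKM in WT_Veh (log2 1.12, adjusted p = 0.000347), and Nfe2l2, the oxidant-sensing factor Nrf2, averaged 6.42 ± 0.855 FPKM in AD_Veh and 4.37 ± 0.687 FPKM in WT_Veh (log2 0.51, adjusted p = 0.0418). Gstm5, a glutathione transferase, fell, with 66.4 ± 7.18 FPKM in AD_Veh and 92.8 ± 15.9 FPKM in WT_Veh (log2 -0.47, adjusted p = 0.0318), so that 4 of 36 oxidant defence genes rose and 1 fell. Of 34 glycolysis genes 3 rose, and they were the hexokinases Hk3 (log2 0.95, adjusted p = 0.000425) and Hk2 (log2 0.85, adjusted p = 0.000494) and the lactate exporter Slc16a3 (log2 0.73, adjusted p = 0.00488), all at a group mean of 1.60 FPKM or less. P2ry6, a receptor for UDP (2.54 ± 0.432 FPKM in AD_Veh and 0.671 ± 0.248 FPKM in WT_Veh, log2 1.39, adjusted p = 1.13e-05), and Entpd1, the enzyme CD39 that breaks down extracellular ATP (5.43 ± 0.601 FPKM in AD_Veh and 3.47 ± 0.569 FPKM in WT_Veh, log2 0.59, adjusted p = 0.00609), were the 2 called among 23 purinergic genes. Heph lost its call without AD_Veh mouse 1, 2, 3 or 4 or without WT_Veh mouse 1, 2 or 4 (adjusted p between 0.0522 and 0.0933). Gstm5 lost its call without AD_Veh mouse 1, 3 or 4 or without WT_Veh mouse 2, 4 or 5 (adjusted p between 0.0509 and 0.117). Nfe2l2 lost its call without AD_Veh mouse 1, 3 or 4 or without WT_Veh mouse 1, 2, 3 or 5 (adjusted p between 0.0548 and 0.149). Slc16a3 had adjusted p = 0.0601 when only the 10 vehicle libraries were fitted. Without AD_Veh mouse 5 the iron and haem list had 5 rises.

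**Figure D3:**
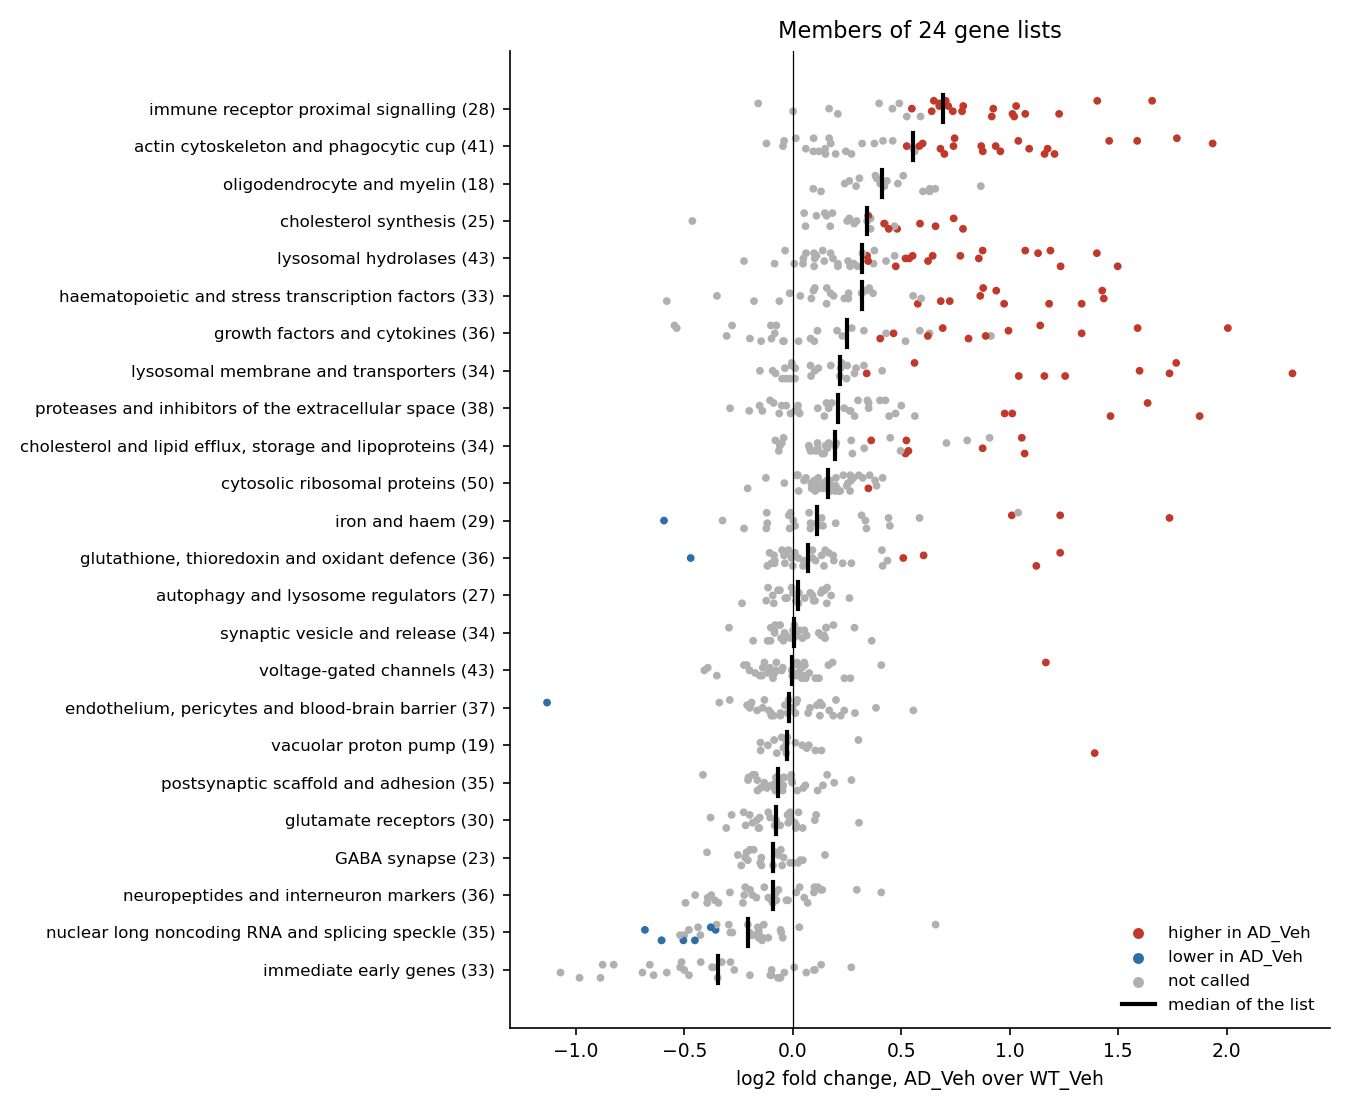
Log2 fold change of AD_Veh over WT_Veh for each tested member of 24 gene lists, ordered by the list's median (black bar), with the number tested in parentheses. Red members are higher and blue members lower at adjusted p under 0.05, and grey members are not called. Immune receptor signalling stands highest with a median of 0.69 and immediate early genes lowest with -0.35.

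Neuronal and synaptic genes were almost without calls. In 7 neuronal lists with 225 tested genes together (glutamate receptors, GABA synapse, synaptic vesicle, postsynaptic scaffold, voltage-gated channels, neuropeptides and interneuron markers, and cortical layer markers) 1 was higher, the proton channel Hvcn1 given above, and 0 were lower, with a median log2 fold change of -0.05. The share called higher was 0.444%, against 3.01% of all tested genes. The share called lower was 0%, against 0.274% of all tested genes, so the lack of falls lay near that share. At an unadjusted limma p under 0.05, 3 were higher and 7 lower. Their summed level was 0.87 to 1.04 times the WT_Veh mean in AD_Veh mice and 0.95 to 1.05 times in WT_Veh mice. Snap25, a fusion protein of synaptic vesicles, averaged 326 ± 45.2 FPKM in AD_Veh and 373 ± 72.5 FPKM in WT_Veh (log2 -0.18, SE 0.14, adjusted p = 0.704). Camk2a, the main kinase of the postsynaptic density, averaged 379.5 ± 32 FPKM in AD_Veh and 415 ± 67.3 FPKM in WT_Veh (log2 -0.12, SE 0.10, adjusted p = 0.72). Of 30 genes of neurofilaments, tau and swollen axons, Atf3, a stress-induced factor, was the only one called (1.44 ± 0.189 FPKM in AD_Veh and 0.66 ± 0.432 FPKM in WT_Veh, log2 0.83, adjusted p = 0.0318). Atf3 lost its call without AD_Veh mouse 1, 2 or 3 or without WT_Veh mouse 1, 2 or 3 (adjusted p between 0.069 and 0.0945).

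No immediate early gene passed the test in the reported fit. Of 33 tested, 0 were called by limma, 0 were higher and 7 lower at an unadjusted p under 0.05, 27 had a negative log2 fold change, and the median was -0.35. With a correction for GC content 1 was called lower and 0 higher, 29 had a negative log2 fold change, and the median was -0.41. Arc, which acts at active synapses, measured 31.3, 31.4, 59.7, 63.7 and 27.3 FPKM in the 5 AD_Veh mice, against 108, 74.4, 27.3, 98.9 and 147 FPKM in the 5 WT_Veh mice (log2 -0.98, SE 0.50, adjusted p = 0.461). WT_Veh mouse 3 lay at the bottom of its own group and at the level of the lowest AD_Veh mouse. Nr4a1, a nuclear receptor of the same class, averaged 16.5 ± 3.52 FPKM in AD_Veh and 32.8 ± 13 FPKM in WT_Veh (log2 -0.89, SE 0.39, adjusted p = 0.348). The spread among WT_Veh mice was wide for both.

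**Figure D4:**
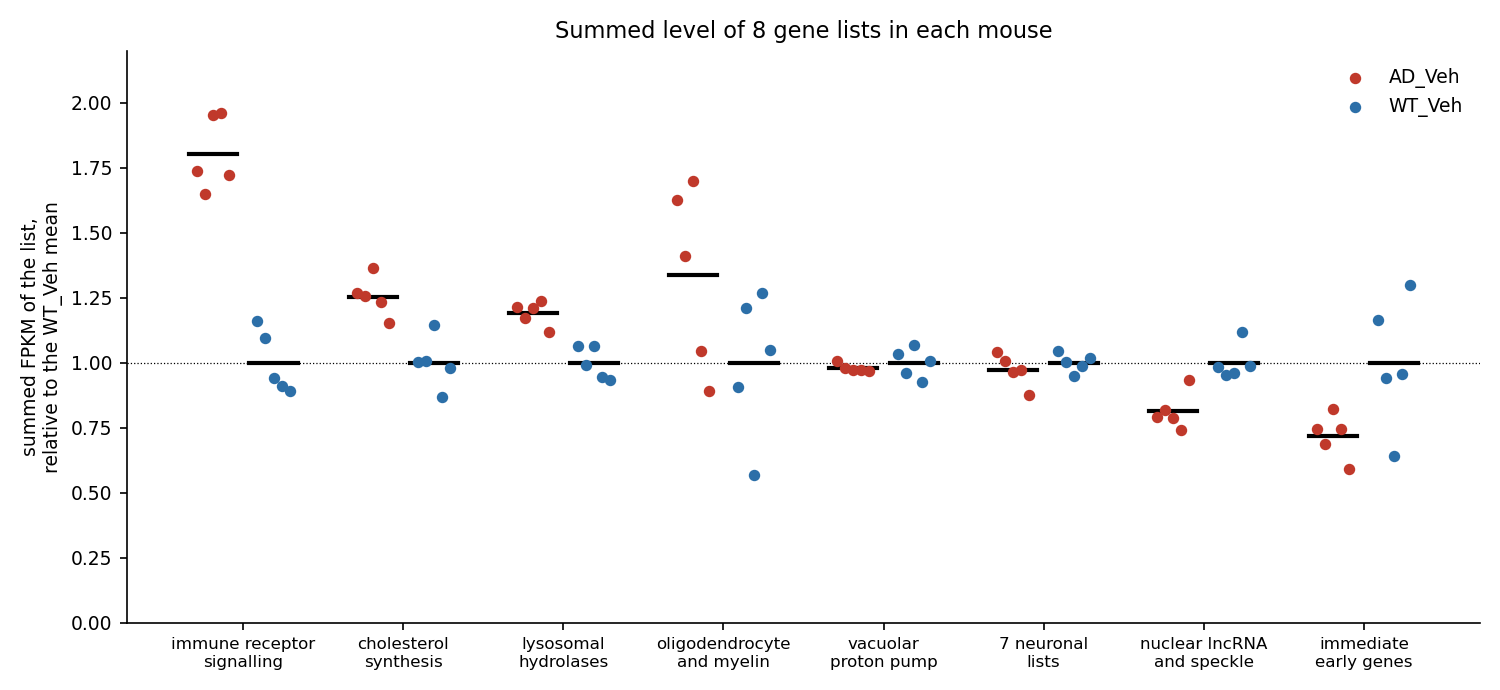
Summed FPKM of the tested members of 8 gene lists in each mouse, divided by the mean of the 5 WT_Veh mice, with AD_Veh (red) left of WT_Veh (blue) and the black bar at the group mean. The axis starts at 0 and the dotted line marks 1. The groups lie apart for immune receptor signalling (1.65 to 1.96 against 0.89 to 1.16) and overlap for oligodendrocyte and for immediate early genes.

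Other stress and housekeeping groups also held few calls. The share called higher was 3.45% in the unfolded protein list and in the proteasome list, 5% in heat shock and 2% in cytosolic ribosomal proteins. Over all tested genes it was 3.01%, so these counts lay near that share. The unfolded protein response gave 1 rise among 29 (Atf3), the proteasome 1 among 29 (Psmb8, a subunit of the immunoproteasome, 1.55 ± 0.273 FPKM in AD_Veh and 0.564 ± 0.237 FPKM in WT_Veh, log2 0.96, adjusted p = 0.0011) and heat shock genes 1 (Hspb8, a small chaperone, 7.44 ± 0.896 FPKM in AD_Veh and 4.74 ± 1.18 FPKM in WT_Veh, log2 0.63, adjusted p = 0.019). By limma, 20 cell cycle genes gave 0 calls (2 higher and 0 lower at an unadjusted p under 0.05), 20 circadian clock genes 0 (1 and 2) and 20 glucocorticoid response genes 0 (2 and 3). Another 50 cytosolic ribosomal protein genes gave 1 rise (Rps3, log2 0.35, adjusted p = 0.0489) with 47 of 50 positive (median 0.16). Rps3 lost its call without AD_Veh mouse 1, 2, 3 or 4 or without WT_Veh mouse 3, 4 or 5 (adjusted p between 0.0908 and 0.189). Hspb8 lost its call without AD_Veh mouse 4 or 5 or without WT_Veh mouse 4 (adjusted p between 0.0506 and 0.0665). Without AD_Veh mouse 5, 4 ribosomal protein genes were higher, and without WT_Veh mouse 1, 3 were. Among 37 endothelial and pericyte genes the only call was the fall of Apold1. None of the lists for neighbouring tissues and blood held a called gene. They hold few tested genes (3 of 20 for blood leukocytes), so 0 calls says little beside the 3.01% of all tested genes. Of 6 red blood cell genes, 5 had a positive log2 fold change (median 0.81), and 2 were higher and 0 lower at an unadjusted limma p under 0.05. At that limit the meningeal list held 1 higher, and the other tissue and blood lists 0 in either direction.

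The 41 genes that fell had smaller changes at the median than those that rose. None was in the 7 neuronal lists, which is near the 0.274% called lower over all tested genes. Snhg11, Mir124a-1hg and Tspan7, described below as neuronal, were among the falls. Rpe65, the isomerase of the retinoid cycle, had the largest fall by the naming rule, with 0.532, 0.749, 0.632, 1.16 and 1.31 FPKM in the 5 AD_Veh mice, against 3.17, 2.43, 2.04, 2.84 and 2.35 FPKM in the 5 WT_Veh mice (log2 fold change -1.18, SE 0.24, adjusted p = 0.00377). Every AD_Veh mouse was below every WT_Veh mouse. Zfp365, which encodes a zinc finger protein that binds Disc1, had the lowest adjusted p of all falls. It measured 109, 118, 112, 112 and 111 FPKM in the 5 AD_Veh mice, against 155, 150.5, 140.0, 148 and 152 FPKM in the 5 WT_Veh mice (log2 fold change -0.41, SE 0.06, adjusted p = 6.84e-05). The mice of each group were close together. Trank1, a gene at a human bipolar disorder risk locus, measured 18.5, 20.1, 16.1, 15.2 and 21.8 FPKM in the 5 AD_Veh mice, against 31.4, 25.4, 24.3, 28.6 and 23.6 FPKM in the 5 WT_Veh mice (log2 fold change -0.53, SE 0.12, adjusted p = 0.0073). These 3 genes kept their call under all 21 other settings tried. Apold1, an early response gene of endothelial cells, measured 0.899, 0.761, 1.18, 1.08 and 1.03 FPKM in the 5 AD_Veh mice, against 2.12, 1.57, 1.82, 5.39 and 4.38 FPKM in the 5 WT_Veh mice (log2 fold change -1.13, SE 0.26, adjusted p = 0.0122), with its 2 highest WT_Veh values in the female mice. Without WT_Veh mouse 4 its adjusted p was 0.0525, and without WT_Veh mouse 5 it was 0.0538. Kirrel2, a cell adhesion molecule, averaged 1.17 ± 0.343 FPKM in AD_Veh and 2.04 ± 0.299 FPKM in WT_Veh (log2 -0.62, adjusted p = 0.00804), and its adjusted p was 0.0648 with only the 10 vehicle libraries fitted.

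Nuclear RNAs and splicing factors were low together. Of 35 tested genes for nuclear long noncoding RNAs and speckle proteins, 6 fell and none rose, 33 had a negative log2 fold change, and the median was -0.21. Snhg11, a small nucleolar RNA host gene of neurons, measured 59.3, 59.95, 53.5, 41.8 and 71.1 FPKM in the 5 AD_Veh mice, against 97, 77.7, 82.7, 101 and 74.3 FPKM in the 5 WT_Veh mice (log2 fold change -0.60, SE 0.16, adjusted p = 0.0388). AD_Veh mouse 4 was the lowest and mouse 5 the highest of its group. Mir124a-1hg, a host gene of the neuronal microRNA miR-124, averaged 9.12 ± 2.0 FPKM in AD_Veh and 14.8 ± 2.92 FPKM in WT_Veh (log2 -0.68, adjusted p = 0.0452). The splicing factors Luc7l3 (17.1 ± 2.7 FPKM in AD_Veh and 23.3 ± 0.932 FPKM in WT_Veh, log2 -0.45, adjusted p = 0.0285), Pnisr (9.72 ± 2.09 FPKM in AD_Veh and 13.8 ± 0.908 FPKM in WT_Veh, log2 -0.50, adjusted p = 0.0384), Tra2a (6.87 ± 0.866 FPKM in AD_Veh and 9.04 ± 0.5 FPKM in WT_Veh, log2 -0.38, adjusted p = 0.0192) and Rbm5 (5.72 ± 0.722 FPKM in AD_Veh and 7.45 ± 0.603 FPKM in WT_Veh, log2 -0.36, adjusted p = 0.0452) complete the 6. Meg3, an imprinted long noncoding RNA, averaged 31 ± 4.63 FPKM in AD_Veh and 44.3 ± 8.66 FPKM in WT_Veh and was not called (log2 -0.50, adjusted p = 0.137), and Malat1, a main noncoding RNA of speckles, averaged 23.6 ± 5.21 FPKM in AD_Veh and 26.1 ± 4.66 FPKM in WT_Veh (log2 -0.15, adjusted p = 0.847).

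These calls lie near the threshold. Left without one mouse at a time, the list had 1 fallen member without AD_Veh mouse 1, 2, 3 or 4 and 11 without AD_Veh mouse 5, and it had 3 without WT_Veh mouse 1 or 2, 2 without WT_Veh mouse 3 or 5 and 0 without WT_Veh mouse 4. The genes of this list have a median GC content of 43.3% against 49.6% over all tested genes, and with a correction for GC content 6 members were lower, not all of them the genes above (Rbm5 had adjusted p = 0.0882), and the median was -0.20. Snhg11 also lost its call with that correction. With FPKM rescaled to one total, Snhg11, Mir124a-1hg, Luc7l3, Pnisr and Rbm5 lost their call, and Tra2a kept it. With only the 10 vehicle libraries fitted, Mir124a-1hg, Pnisr, Rbm5 and Tra2a lost theirs. Snhg11 lost its call without AD_Veh mouse 1, 2, 3 or 4 or without WT_Veh mouse 1, 3 or 4 (adjusted p between 0.0593 and 0.147). Mir124a-1hg lost its call without AD_Veh mouse 2, 3, 4 or 5 or without WT_Veh mouse 1, 2, 4 or 5 (adjusted p between 0.0569 and 0.169). Luc7l3 lost its call without AD_Veh mouse 1, 2, 3 or 4 or without WT_Veh mouse 2, 3, 4 or 5 (adjusted p between 0.0511 and 0.106). Pnisr lost its call without AD_Veh mouse 1, 2, 3 or 4 or without WT_Veh mouse 1, 2, 3, 4 or 5 (adjusted p between 0.055 and 0.148). Tra2a lost its call without AD_Veh mouse 1 or 2 or without WT_Veh mouse 4 (adjusted p between 0.0661 and 0.0695). Rbm5 lost its call without AD_Veh mouse 1, 2, 3 or 4 or without WT_Veh mouse 1, 3, 4 or 5 (adjusted p between 0.0696 and 0.134).

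Genes that modify RNA, and genes of mitochondrial expression grouped here after their values were seen, were also among the falls. Dimt1, which methylates the small ribosomal RNA, measured 1.87, 1.96, 2.43, 1.64 and 1.95 FPKM in the 5 AD_Veh mice, against 3.23, 2.73, 2.57, 3.65 and 3.67 FPKM in the 5 WT_Veh mice (log2 fold change -0.57, SE 0.11, adjusted p = 0.00268), and the groups did not overlap. Its adjusted p was 0.0528 with the GC correction and 0.0752 with the replicate block and the GC correction together. Qtrt1, the catalytic subunit that places queuine in transfer RNAs, averaged 2.03 ± 0.502 FPKM in AD_Veh and 3.23 ± 0.525 FPKM in WT_Veh (log2 -0.58, adjusted p = 0.022), and AD_Veh mouse 4 was its lowest at 1.2 FPKM. Without that mouse its adjusted p was 0.0806, and without WT_Veh mouse 2 it was 0.0793. These were 2 of 34 genes of RNA modification and ribosomal RNA maturation, of which none rose (median -0.01). Mterf3 (2.78 ± 0.68 FPKM in AD_Veh and 3.99 ± 0.421 FPKM in WT_Veh, log2 -0.48, adjusted p = 0.0311) and Mterf1a (0.585 ± 0.0576 FPKM in AD_Veh and 1.16 ± 0.217 FPKM in WT_Veh, log2 -0.61, adjusted p = 0.0426) belong to the family of mitochondrial transcription termination factors. Mterf1a has a close copy in the mouse genome, so its level is uncertain. Mrpl36 was the only one of 81 mitochondrial ribosomal protein genes called (10.9 ± 1.23 FPKM in AD_Veh and 14 ± 0.855 FPKM in WT_Veh, log2 -0.34, adjusted p = 0.0318). Crls1, the cardiolipin synthase of mitochondria, averaged 14.2 ± 1.21 FPKM in AD_Veh and 18 ± 1.04 FPKM in WT_Veh (log2 -0.33, adjusted p = 0.0257), and it was chosen after its values were seen. Mterf3 lost its call without AD_Veh mouse 4 or without WT_Veh mouse 2, 3, 4 or 5 (adjusted p between 0.0614 and 0.0901). It also lost its call with the GC correction, and its limma adjusted p reached 0.2415 over all alternatives. Mterf1a lost its call without AD_Veh mouse 1, 2, 3, 4 or 5 or without WT_Veh mouse 1, 2, 4 or 5 (adjusted p between 0.0641 and 0.115). Mrpl36 lost its call without AD_Veh mouse 1, 4 or 5 or without WT_Veh mouse 2, 4 or 5 (adjusted p between 0.0648 and 0.119). Crls1 lost its call without AD_Veh mouse 3 or 5 or without WT_Veh mouse 1, 3 or 5 (adjusted p between 0.0532 and 0.0839). It also lost its call with the GC correction, with the replicate block, with only the 10 vehicle libraries and with rescaled FPKM. Over all alternatives its limma adjusted p reached 0.222. Transcripts encoded by the mitochondrial genome gave 0 calls among 13 by limma and 0 at an unadjusted p under 0.05, with a median of -0.19 that was -0.05 after the GC correction.

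Among the remaining falls, Ddb2, which senses DNA damage by ultraviolet light, was the 1 gene called among 23 of the p53 and DNA damage response (1.45 ± 0.373 FPKM in AD_Veh and 2.4 ± 0.354 FPKM in WT_Veh, log2 -0.59, adjusted p = 0.0445). Tspan7, a tetraspanin of neurons, averaged 133 ± 5.11 FPKM in AD_Veh and 161 ± 7.92 FPKM in WT_Veh (log2 -0.27, adjusted p = 0.0349). Abcc5, an exporter of organic anions, averaged 12.9 ± 0.633 FPKM in AD_Veh and 15.4 ± 0.666 FPKM in WT_Veh (log2 -0.25, adjusted p = 0.0363). Tspan7 lost its call without AD_Veh mouse 1, 2, 3 or 4 or without WT_Veh mouse 1, 2 or 4 (adjusted p between 0.0617 and 0.105). Abcc5 lost its call without AD_Veh mouse 1, 2, 3 or 5 or without WT_Veh mouse 1, 2, 4 or 5 (adjusted p between 0.0508 and 0.127). Ddb2 lost its call without AD_Veh mouse 1, 3, 4 or 5 or without WT_Veh mouse 1, 2, 4 or 5 (adjusted p between 0.0521 and 0.158). The median GC content was 45.8% for the genes that fell, 51.9% for those that rose and 49.6% for all tested, and 27 of the 41 falls were called after a GC correction, which gave 59 in all. Leaving out one mouse at a time gave between 19 falls (without AD_Veh mouse 1) and 74 (without AD_Veh mouse 5), with 20 without AD_Veh mouse 3, 26 without AD_Veh mouse 4, 22 without WT_Veh mouse 4 and 27 without WT_Veh mouse 5. Of the 41 reported falls, 17 were called without AD_Veh mouse 1, 31 without AD_Veh mouse 5 and 15 without WT_Veh mouse 4.

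**Figure D5:**
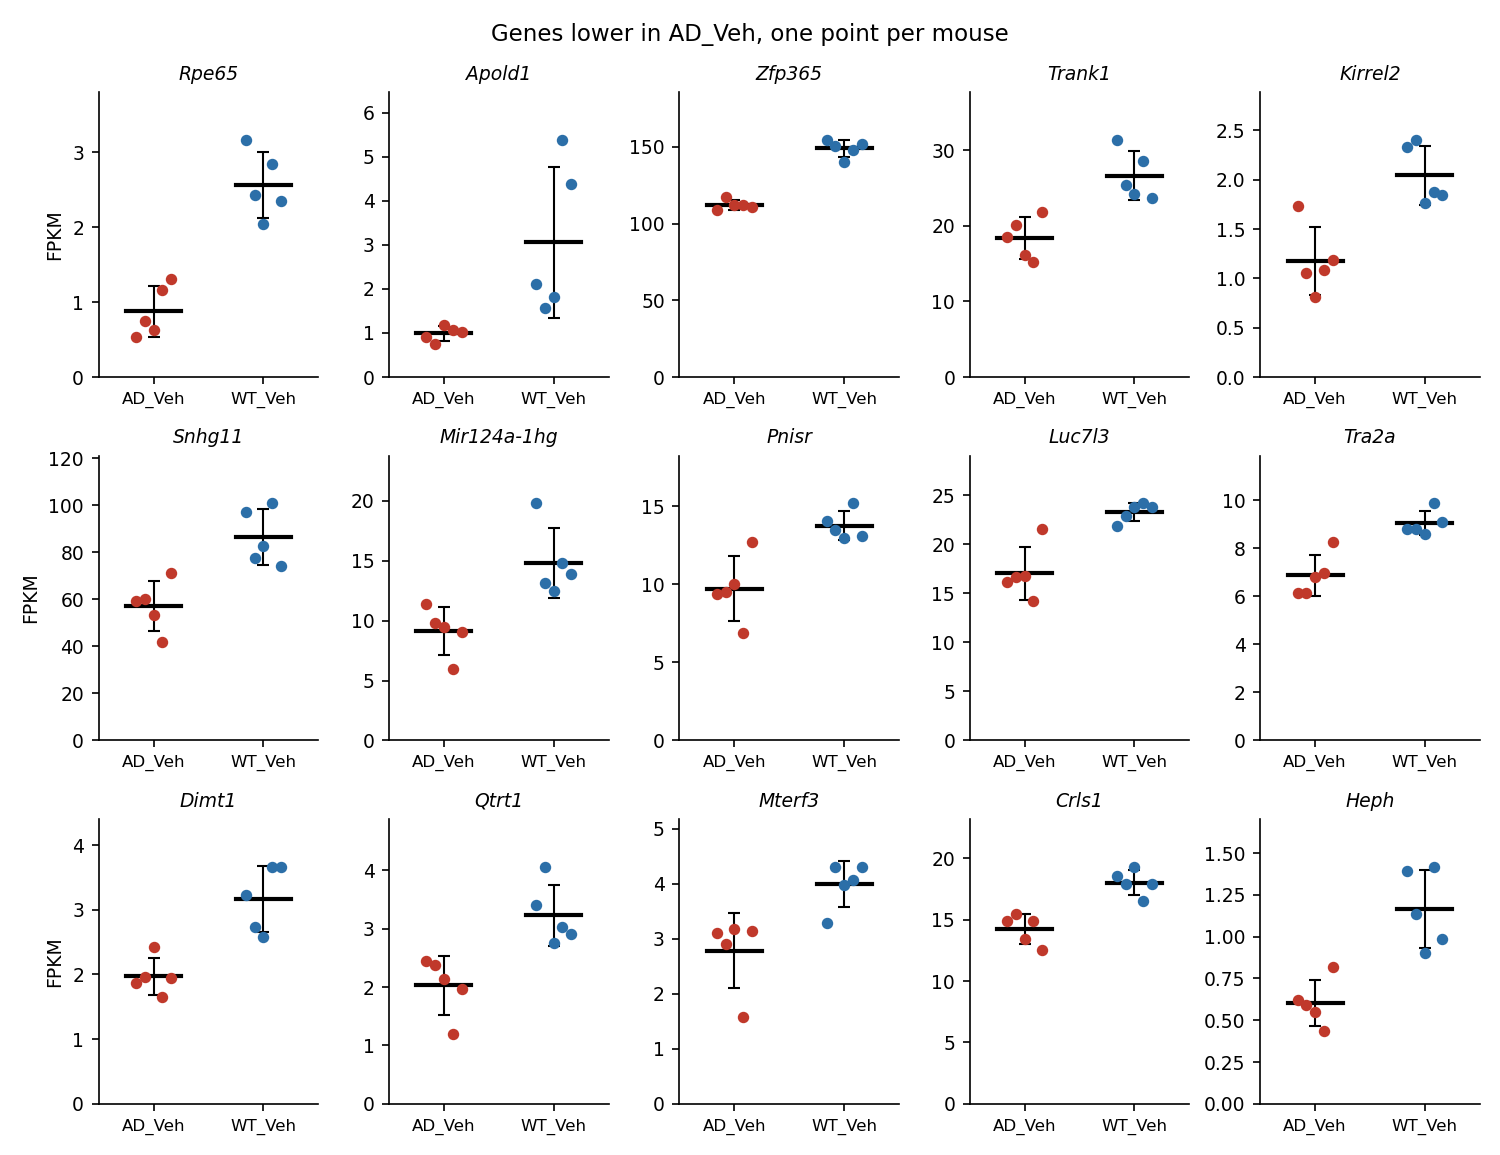
FPKM of 15 genes lower in AD_Veh, one point per mouse, with AD_Veh (red) left of WT_Veh (blue), the horizontal bar at the mean and the error bar at 1 SD (n = 5 each). All axes start at 0. In all 15 panels the AD_Veh mice lie below the WT_Veh mice, from 109 to 118 FPKM against 140.0 to 155 FPKM for Zfp365.

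Called genes also lay side by side on chromosomes. There were 6 runs of at least 3 neighbouring tested genes that all rose, and none of genes that fell. On chromosome 6 from 48833818 to 49070929 (mm10), Tmem176b, Tmem176a and Gpnmb rose, the first 2 being membrane proteins of antigen-presenting cells (log2 0.94, adjusted p = 7.37e-05 and log2 0.88, adjusted p = 5.94e-06) that overlap each other. Many other genes named here also overlap another gene, and without the use of strand stated their levels are uncertain to that extent. Among the risen genes these are Cd180, Cd48, Cebpa, Ch25h, Ctsa, Ctsb, Entpd1, Hexa, Hk3, Hpgds, Hvcn1, Igf1, Itgam, Lamp1, Ly9, Nfe2l2, P2ry6, Plek, Ptpn6, Pycard, Sh3bp2, Slc15a3, Slc37a2, Stat3, Tbxas1, Ucp2 and Vsir. Among the fallen genes these are Crls1, Ddb2, Dimt1, Gstm5, Heph, Mir3058, Mir697, Mrpl36, Mterf3, Rbm5, Snhg11, Tra2a and Tspan7, and among genes not called they include Camk2a, Snap25 and Sqstm1. On chromosome 1 from 171437535 to 171705258, the junction protein F11r (log2 0.86, adjusted p = 0.00107) rose with the SLAM receptors Ly9 and Cd48 (log2 1.68, adjusted p = 0.000151). On chromosome 7 from 127989708 to 128150657, Pycard, the adaptor of inflammasomes (log2 0.82, adjusted p = 0.0014), rose with the integrins Itgam (log2 0.97, adjusted p = 0.00192) and Itgax. The other 3 runs were the chemokine cluster of chromosome 11 with Wfdc17, the MHC class II genes of chromosome 17 and the C1q genes of chromosome 4. The 51 clustered protocadherin genes gave 0 calls by limma (4 higher and 1 lower at an unadjusted p under 0.05), and the 26 histone genes also gave 0 (1 higher and 2 lower).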

How the data were processed

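Cortical poly(A) RNA was sequenced with a strand-specific protocol, per the labels' protocols. HISAT2 and the build mm10 are named in the submitters' processing notes. The aligner's version, the counter, its use of strand and its annotation were not given in the sources used here. The authors deposited FPKM values for 54532 genes in 25 libraries, with gene lengths in bp, another deposited measure. FPKM times length gave whole reads for 100% of values (tolerance 0.01 of a read), from which depth was recovered.

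The tested genes reached 0.5 FPKM in 5 or more of the 10 vehicle libraries. Some passed only through the AD_Veh mice, with every WT_Veh value under 0.5 FPKM, which fixed the direction of change and the lack of overlap. Mamdc2, Slc15a3, Atp6v0d2, Dkk2, Olfr111, Pdcd1, Ly9, Plaur and Tbxas1 are among them. Values were taken as log2(FPKM + 0.5), where 0.5 is the pseudocount, and fold changes on that scale understate those of low genes. The model, in limma (version 3.58.1, under R 4.3.3 with version 1.17.8 of data.table), had a mean for each of the 5 groups over the 25 libraries, with an intensity trend and 20 residual degrees of freedom. Tests were two-sided with Benjamini-Hochberg adjustment over all tested genes, and the fit was tested on simulated data. Means are given with SD over 5 mice. GC content came from GENCODE M21 transcripts of mm10.

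The members, lists and tests were chosen with earlier results of these data known. The naming rule took genes that check the genotype, Thy1 and App among them; the 15 largest rises and falls outside the glial lists with at least 1 FPKM in a group, an approved-style symbol and no overlap; the 10 largest differences in FPKM; up to 4 called members of a list or family, or the 2 highest-expressed where none was called; and runs of 3 or more called neighbours. Inpp5d, Plcg2, Spi1, Gm2a, Naglu, Lgmn, Ctsa, Mvk, Mvd, Plin2, Tgfb1, Nfe2l2, Nr4a1, Meg3, Malat1, Rbm5, Zxdb, Rasgrp3, Pik3cg and Sh3bp2 were also chosen after their values were seen. Some genes are not reported here.

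Every pair of the 10 libraries differed by more than counting noise, the lowest chi-square per gene being 8.27. The fit did not pair the mice by replicate number. Deviations of same-numbered mice correlated at 0.36, 0.15, -0.25, 0.02 and 0.04, and those of unlike numbers at -0.26 to 0.30. The numbers followed sex in both groups. The slope of log2 level on GC content, per 10 points, fell from mouse 1 to mouse 5, from 0.12 to -0.26 in AD_Veh and from 0.08 to -0.31 in WT_Veh. The part of this order in the results was not tested. Alternatives were other pseudocounts, filters and scalings, array weights, a sex or replicate term, a GC correction, fewer libraries, and leaving out each mouse.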

Additional observations from a re-analysis of the deposited data

Results flagged for a closer look

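In 280 groups of 5 mice, one per genotype for each gene named here and for 4 library measures, 9 held a mouse that stood apart from the other 4 by Dixon's 95% criterion. Chance flags about 1 in 20 groups. In AD_Veh, F11r was 5.98 FPKM in mouse 4 against 4.25 to 4.65 in the others, and Mterf3 was 1.58 FPKM in mouse 4 against 2.91 to 3.18. Inpp5d was 3.59 FPKM in AD_Veh mouse 2 against 4.12 to 4.32 in the others. In AD_Veh mouse 5, Mvk was 4.30 FPKM against 7.20 to 8.06 in the others, and Rbm5 was 7.01 FPKM against 5.30 to 5.49. In WT_Veh, Cd180 was 1.07 FPKM in mouse 2 against 0.511 to 0.63 in the others, and Slc15a3 was 0.0431 FPKM in mouse 4 against 0.353 to 0.451. Mir697 was at 0 in 4 AD_Veh mice and at 1.12 FPKM in mouse 3, and Pdcd1 was at 0 in 4 WT_Veh mice and at 0.122 FPKM in mouse 3.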

How the results depend on the processing

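The count of higher genes stayed within 1.5 times of 450 under all 21 alternatives (314 to 641, and 349 to 479 when one mouse was left out). The count of lower genes, 41 as reported, was 21 with only the 10 vehicle libraries fitted, 190 with array weights and 24 with FPKM rescaled to one total, and it ranged from 19 to 74 when one mouse was left out. The cause was not tested. Of the 41 reported falls themselves, 13 were called with only the 10 vehicle libraries, 37 with array weights and 24 with rescaled FPKM. On leaving out one mouse, 15 (without WT_Veh mouse 4) to 31 (without AD_Veh mouse 5) of them were called. With array weights, 77.1% of called genes were higher, against 91.6% as reported. The replicate block gave 431 higher and 29 lower genes, and with the GC correction 473 and 57. Of 123 called genes named here, 80 of 97 rises and 4 of 26 falls kept their call under every alternative in which they were tested (20 or 21), and 0 changed sign. The losses given above for single genes are mainly those on leaving out a mouse, and many of these genes also lost their call under other settings. With the GC correction the rises Atf3, Plin2 and Rps3 lost their call. So did the falls Crls1, Ddb2, Dimt1, Mterf1a, Mterf3, Rbm5, Snhg11 and Tspan7. At this depth, genes near 0.5 FPKM rest on few reads, and PCR duplicates cannot be recognised.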

Other observations

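Other receptors and transporters that carry no usual glial label were also higher in AD_Veh. These genes were chosen after their values were seen, apart from Olfr111. Olfr111, an olfactory receptor gene, measured 0.87, 0.867, 0.879, 1.23 and 1.03 FPKM in the 5 AD_Veh mice, against 0.0908, 0.114, 0.156, 0.425 and 0.206 FPKM in the 5 WT_Veh mice (log2 fold change 1.09, SE 0.17, adjusted p = 0.00017). All WT_Veh values were under 0.5 FPKM, so Olfr111 passed the filter only through AD_Veh mice and its groups could not overlap. Pdcd1, the immune checkpoint receptor PD-1, averaged 1.22 ± 0.342 FPKM in AD_Veh and 0.0244 ± 0.0546 FPKM in WT_Veh (log2 1.70, adjusted p = 2.19e-05). It too passed the filter only through AD_Veh mice, so its groups could not overlap. Vsir, another checkpoint protein, averaged 13.1 ± 1.76 FPKM in AD_Veh and 4.88 ± 1.05 FPKM in WT_Veh (log2 1.35, adjusted p = 3.24e-07), and Havcr2, the receptor TIM-3, averaged 3.4 ± 0.713 FPKM in AD_Veh and 1.24 ± 0.447 FPKM in WT_Veh (log2 1.19, adjusted p = 0.000811).

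Several of the largest falls by log2 were short RNA genes. Mir697 averaged 0.224 ± 0.502 FPKM in AD_Veh and 4.17 ± 2.22 FPKM in WT_Veh (log2 -2.71, adjusted p = 0.000634) and Mir3058 averaged 0.4 ± 0.594 FPKM in AD_Veh and 2.89 ± 1.17 FPKM in WT_Veh (log2 -2.06, adjusted p = 0.02). Both genes are shorter than the selected library fragments and rest on few reads, so these levels are uncertain. Mir3058 lost its call without AD_Veh mouse 1, 4 or 5 or without WT_Veh mouse 3 (adjusted p between 0.0517 and 0.0671).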
